A study of Mus musculus with 7 samples.

Results

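The genes of the integrated stress response and the unfolded protein response were examined in quadriceps muscle of AR113Q knock-in mice. The set held 44 genes, listed by name for their place in these pathways, with earlier results of these data known. They were 24 genes of the ATF4 branch, 15 genes of the XBP1-ATF6 branch and 5 stress sensors. All 44 had a probe on the arrays, 52 probes in all, and 40 of the 44 passed the filter on dim probes and were among the 16577 genes tested.

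RNA was taken from quadriceps of male C57BL/6 mice at 3 months of age (90 days in the labels), 4 of them WT and 3 of them AR113Q, and hybridized to single-dye Agilent arrays, 1 array per mouse. The AR113Q allele encodes a humanized androgen receptor with an expanded polyglutamine tract and models spinal and bulbar muscular atrophy, a motor neuron and muscle disease. It is a knock-in, so that its expression is not confined to muscle. The sample labels call the controls WT, whereas the results text of the study describes a knock-in control line with a short repeat, and the labels do not settle which it was. The labels do not say whether mice shared a litter, and p-values measure the spread between these arrays only.

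Cells answer to misfolded protein, amino acid shortage, viral RNA or heme shortage by phosphorylating the translation factor eIF2α. This lowers protein synthesis in general and favors translation of Atf4, whose product switches on genes of amino acid supply, redox balance and feedback. In the endoplasmic reticulum (ER), unfolded proteins activate the kinases PERK and IRE1α and the membrane-bound factor ATF6. IRE1α splices the Xbp1 mRNA, and the XBP1 and ATF6 proteins raise ER chaperones and the machinery that retrieves and degrades misfolded proteins. In skeletal muscle an active ATF4 program is known from fasting, immobilization and mitochondrial disease. The arrays measured mRNA levels. Phosphorylation of eIF2α and splicing of Xbp1 were not measured, and in a bulk sample fewer cells of a type and less RNA per cell cannot be told apart.

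Each array gave 44397 spots for 39429 probes, and 47.6% to 55.8% of the probes were well above background. No array stood apart from its genotype: the lowest correlation over genes within a genotype was 0.97, and the lowest between genotypes was 0.91. The 8 myofiber markers had a mean log2 signal of 15.66 to 15.80 on the WT arrays and 15.17 to 15.61 on the AR113Q arrays, and 1 of them, Mylpf, was a lower DEG. Some markers of other cells moved with genotype. The mean log2 signal of 8 fibroblast markers was 11.94 to 12.44 on WT and 9.47 to 10.79 on AR113Q arrays. Of the 8, 7 were lower on average, 5 of them DEGs, beside 13.1% of all genes. Pdgfra overlapped between genotypes, and Dcn was higher on all 3 AR113Q arrays, with a log2 difference of 0.41 that did not pass. The mean of 6 adipocyte markers was 9.92 to 11.04 and 8.34 to 9.32, with 5 of 6 lower DEGs. Macrophage markers overlapped between genotypes in their mean (9.54 to 10.35 and 9.40 to 9.93; 1 of 8 higher and 2 of 8 lower), as did endothelial markers (8.82 to 8.91 and 8.84 to 9.17; 0 of 7). Of 6 plasma cell and B cell markers 3 passed the filter, with means of 5.75 to 6.23 and 5.26 to 5.66, while Jchain, Cd79a and Tnfrsf17 did not pass. The 3 did not move alike. Sdc1 was a lower DEG, Cd79b had a log2 difference of -1.18 that did not pass the adjusted p, and Mzb1 was higher by 0.85 without overlap.

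A gene was called a DEG when its adjusted p was at most 0.05 (limma, Benjamini-Hochberg over all 16577 genes) and its log2 fold change, AR113Q over WT, was at least 1 in either direction. Of the 40 genes tested, 12 were higher and 4 were lower in AR113Q, and 15 of these 16 were well above background on all 7 arrays. Over all genes, 11.2% were DEGs in the upward and 13.1% in the downward direction (24.3% in either). The genes were listed with earlier results of these data known, so that these shares are a background and not a test. A further 5 genes were higher with an adjusted p of at most 0.05 but a smaller change, which makes 17 higher and 4 lower past the adjusted p alone, against 21.0% and 22.6% of all genes. The remaining 19 did not pass. The WT and AR113Q values did not overlap for 23 of the 40, against 49.3% of all genes. The median log2 fold change was 0.39 for the 40 genes and -0.01 for all genes. By branch, the ATF4 branch held 8 higher and 3 lower DEGs among 21 tested, the XBP1-ATF6 branch 2 and 1 among 14, and the sensors 2 and 0 among 5.

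**Figure D1:**
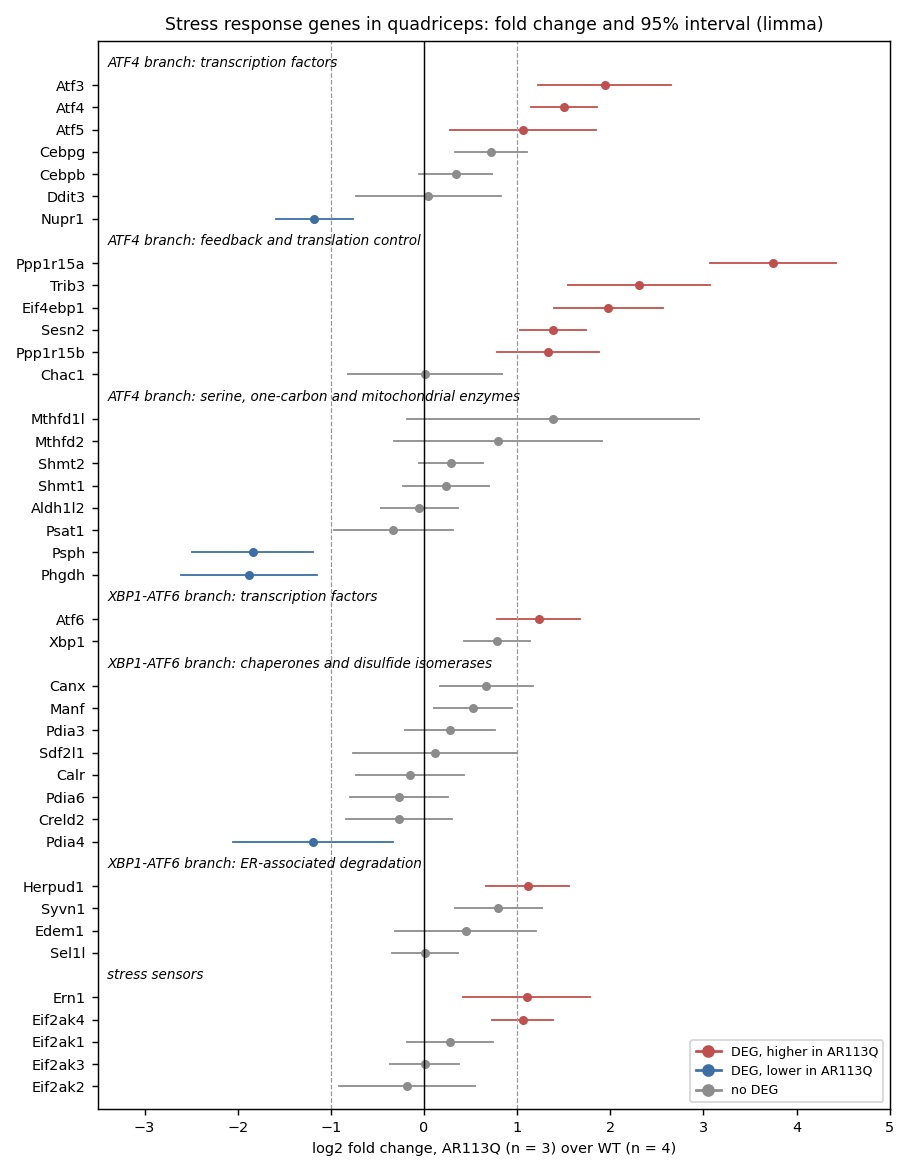
Log2 fold change of AR113Q over WT (x axis) for the 40 genes that passed the filter, ordered by branch and role, with 95% intervals from limma; dashed lines mark a log2 fold change of 1 in each direction. The points farthest to the right are Ppp1r15a at 3.74 and Trib3 at 2.31, the points farthest to the left are Phgdh at -1.88 and Psph at -1.84, and the chaperones range from Pdia4 at -1.19 to Canx at 0.67.

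Atf4 itself, the transcription factor at the center of the integrated stress response, was higher in AR113Q muscle. Its log2 signal was 14.82, 14.82, 14.70 and 14.95 on the 4 WT arrays and 16.52, 16.13 and 16.34 on the 3 AR113Q arrays. Every AR113Q value lay more than 1 log2 unit above every WT value. The difference was 1.50 ± 0.16 on the log2 scale (SE), a 2.83-fold increase (limma adjusted p = 0.000352). The probe lies at chr15:80087902-80087961 (mm9), and a second Atf4 probe, which was dimmer, gave 1.21.

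Of the 7 transcription factors of the ATF4 branch, 3 were higher DEGs and 1 was a lower DEG, beside 11.2% and 13.1% of all genes. A further 1 was higher with a smaller change. Atf3, a stress-induced repressor and activator of the same family, measured 7.29, 7.67, 6.91 and 7.58 in WT and 9.18, 8.76 and 9.97 in AR113Q. The genotypes did not overlap, and the change was 1.94 ± 0.31 (adjusted p = 0.00189). Atf5, a factor translated under the same control as Atf4, measured 13.28, 13.33, 13.11 and 13.15 in WT and 15.20, 14.03 and 13.61 in AR113Q. The WT values were within 0.22 of each other while the AR113Q values spread over 1.59 log2 units, with AR113Q replicate 1 far above the other two. Its log2 fold change of 1.06 ± 0.34 (adjusted p = 0.0354) fell to 0.60 without that replicate, and the call was lost in 10 of 20 alternatives, among them the omission of any array but AR113Q replicate 3.

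Cebpg, the partner with which ATF4 dimerizes on its target sites, was higher by 0.72 ± 0.17 (adjusted p = 0.0105), under the fold threshold. Cebpb, another C/EBP factor, lay between 11.36 and 11.77 in WT and between 11.79 and 12.15 in AR113Q, so that the groups barely separated, and its difference of 0.34 did not pass (adjusted p = 0.145). Ddit3, which encodes CHOP, the factor that links prolonged ER stress to cell death, measured 8.15, 8.19, 8.96 and 7.90 in WT and 8.39, 7.72 and 8.93 in AR113Q. The ranges overlapped almost entirely. Its difference was 0.05, with a 95% interval from -0.74 to 0.83 (adjusted p = 0.925). Atf3 and Atf4 thus differed between genotypes beyond their spread, and for Ddit3 a difference of up to 0.83 in log2 was within the error.

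Nupr1, a small chromatin protein induced by ATF4 in many cell types, went the other way. It measured 11.58, 11.54, 11.26 and 11.35 in WT and 9.98, 10.53 and 10.25 in AR113Q, without overlap. The log2 fold change was -1.18 ± 0.18, a 2.26-fold lower level in AR113Q (adjusted p = 0.00158).

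The group of feedback and translation control genes held the largest increases. Of its 6 genes, 5 were higher DEGs, beside 11.2% of all genes, and 1 of the 5, Ppp1r15b, was near background in WT. When all 7 arrays had to be well above background, the ATF4 branch held 7 higher DEGs in place of 8. Ppp1r15a encodes GADD34, the stress-induced subunit that brings protein phosphatase 1 to eIF2α and so ends the translational block. Its log2 signal was 10.39, 10.28, 10.02 and 10.76 in WT and 14.75, 13.58 and 13.98 in AR113Q. The lowest AR113Q value was 2.82 log2 units above the highest WT value. The change was 3.74 ± 0.29 (95% interval 3.07 to 4.42), 13.4-fold, with an adjusted p of 0.000136. Its probe lies at chr7:52778320-52778379 (mm9). Ppp1r15b, the constitutive subunit of the same phosphatase, was much dimmer. It measured 4.11, 4.47, 3.92 and 4.64 in WT, where only 1 of 4 arrays was well above background, and 5.74, 5.23 and 5.86 in AR113Q, where 3 of 3 were. It thus passed the filter through the AR113Q arrays, where it was brighter, and its log2 fold change of 1.33 rests on WT values near background. With normexp or the mean spot intensity the change was 0.35 or 0.34 and no DEG.

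Trib3, a pseudokinase that binds ATF4 and restrains it, measured 6.29, 7.25, 6.69 and 6.83 in WT and 9.21, 8.37 and 9.65 in AR113Q. All 3 AR113Q values exceeded all 4 WT values, by 2.31 ± 0.33 on average (adjusted p = 0.00125). Eif4ebp1, which encodes the cap-binding inhibitor 4E-BP1, a brake on translation initiation, measured 12.53, 13.09, 12.85 and 12.85 in WT and 15.23, 14.97 and 14.23 in AR113Q, a change of 1.98 ± 0.26 (adjusted p = 0.000805). Sesn2, a leucine sensor that inhibits mTORC1, measured 6.70, 6.72, 6.47 and 6.41 in WT and 8.03, 7.80 and 8.04 in AR113Q. The values within each genotype were tight, and the change was 1.38 ± 0.16 (adjusted p = 0.00048). With normexp, the mean spot intensity or the authors' values it was under the fold threshold, with 0.61 at the lowest.

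Chac1, which encodes a glutathione-degrading enzyme and is a textbook target of ATF4 together with Trib3, did not move with them. It measured 13.62, 13.52, 13.65 and 12.26 in WT and 12.96, 13.65 and 13.20 in AR113Q. WT replicate 4 lay far below the other WT arrays, and the ranges overlapped. The difference was 0.01, with an interval from -0.82 to 0.84 (adjusted p = 0.985), and without WT replicate 4 it was -0.32. Within this group, the median difference from the WT mean was 1.93, 1.42 and 1.52 on the 3 AR113Q arrays and between -0.09 and 0.22 on the WT arrays.

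**Figure D2:**
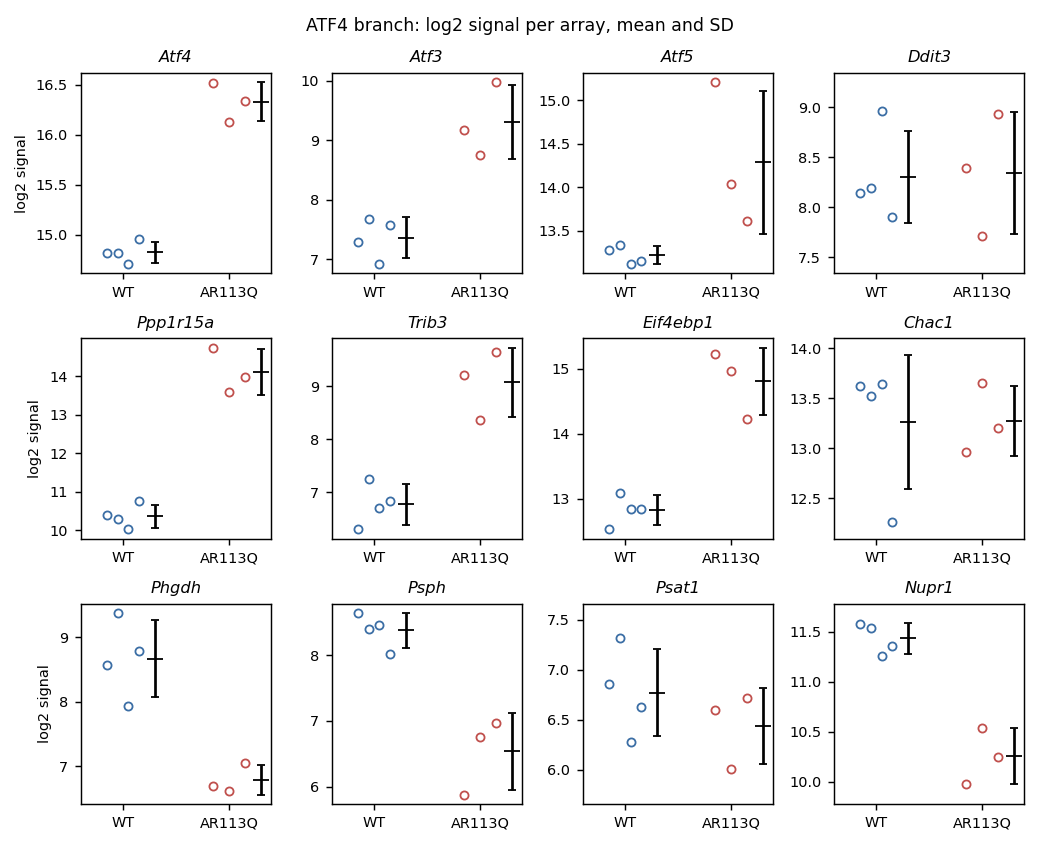
Log2 signal (y axis, quantile normalized; a separate scale per panel) of 12 genes of the ATF4 branch on each WT (blue, n = 4) and AR113Q (red, n = 3) array, with the mean and SD in black. Atf4, Atf3, Atf5, Ppp1r15a, Trib3 and Eif4ebp1 were higher on all 3 AR113Q arrays, Phgdh, Psph and Nupr1 were lower on all 3, and Ddit3, Chac1 and Psat1 overlapped.

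ATF4 binds C/EBP-ATF response elements, and the promoters were read for this sequence. RefSeq windows of 300 bases (250 before to 50 after the start, GRCm38.p6) were at hand for 38 of the 44 genes. The element, TGATGNAA on either strand, was found in 3.97% of all 32851 promoter windows and in those of 7 of the 38 genes: Atf3, Chac1, Trib3, Nupr1, Herpud1, Fgf21 and Pck2. That is 6 of 21 genes of the ATF4 branch, 1 of 12 of the XBP1-ATF6 branch and 0 of 5 sensors. The stretches of the 5 genes that were measured are shown, 5′ to 3′ along the gene, with the element in capitals. It lies on the reverse strand in each, and so reads TTNCATCA, and it begins at base 15 after the start in Trib3 and at -110, -193, -110 and -112 in Atf3, Chac1, Nupr1 and Herpud1.
Trib3, chr2:152344028-152344057, minus strand: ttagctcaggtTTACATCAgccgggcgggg
Atf3, chr1:191183421-191183458, minus strand: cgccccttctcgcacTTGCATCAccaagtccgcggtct
Chac1, chr2:119351034-119351071, plus strand: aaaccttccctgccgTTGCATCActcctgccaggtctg
Nupr1, chr7:126625558-126625595, minus strand: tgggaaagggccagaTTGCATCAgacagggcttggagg
Herpud1, chr8:94386302-94386402, plus strand: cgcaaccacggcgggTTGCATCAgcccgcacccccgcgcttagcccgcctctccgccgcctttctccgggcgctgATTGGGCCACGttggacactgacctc
These 5 genes shared the same 8 letters, up to the free base, and did not share a direction: Trib3, Atf3 and Herpud1 were higher in AR113Q, Chac1 overlapped between genotypes, and Nupr1 was lower. A match is a description of the sequence and not a sign that ATF4 was bound there.

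The enzymes of serine synthesis and the folate cycle, which supply carbon units to nucleotides and methylation and are ATF4 targets in many cells, held 0 higher and 2 lower DEGs among 8 tested. This is 25.0%, close to the 24.3% of all genes, and the median log2 fold change was 0.09. Phgdh, the entry enzyme of serine synthesis from glycolysis, measured 8.57, 9.38, 7.94 and 8.78 in WT and 6.69, 6.62 and 7.05 in AR113Q. It fell by 1.88 on the log2 scale (SE 0.32, adjusted p = 0.00244), without overlap. The probe used lies at chr3:98117215-98117274 (mm9). The other 2 Phgdh probes gave -2.40 and -2.07, but the array annotation places them on chromosomes 17 and 8, and near-identical copies may share their signal.

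Psph, which completes serine synthesis by removing the phosphate, measured 8.64, 8.40, 8.46 and 8.01 in WT and 5.88, 6.76 and 6.98 in AR113Q. The groups were more than 1 log2 unit apart, the change was -1.84 ± 0.28 (adjusted p = 0.00158), and a second probe gave -1.40. With the authors' values it was -0.99, just under the fold threshold. Psat1, the transaminase between these steps, measured 6.86, 7.32, 6.28 and 6.63 in WT and 6.60, 6.01 and 6.72 in AR113Q, with overlap and a difference of -0.33 (interval -0.97 to 0.31, adjusted p = 0.367). The first and last enzymes of the serine route were thus lower in AR113Q, and a fall in the middle enzyme was not detected. The mean signals of the adipocyte and fibroblast marker lists were lower on the same 3 arrays, as given above, though Dcn was higher. The part of these cells in the result was not tested.

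The folate cycle enzymes gave no DEG. Shmt2, the mitochondrial serine hydroxymethyltransferase, lay at 9.33 to 9.46 in WT and 9.54 to 9.91 in AR113Q. The groups did not overlap, but the difference of 0.29 did not pass (adjusted p = 0.157). Its cytosolic relative Shmt1 differed by 0.24 and Aldh1l2, the mitochondrial formyltetrahydrofolate dehydrogenase, by -0.05, both with overlap. Mthfd2 and Mthfd1l, the mitochondrial enzymes that carry the unit to formate, were well above background on 2 of 4 WT and 3 of 3 AR113Q arrays each. Mthfd2 measured 4.19, 4.52, 2.89 and 3.81 in WT and 4.99, 3.64 and 5.30 in AR113Q. Mthfd1l measured 3.98, 6.44, 6.54 and 4.27 in WT and 6.44, 6.29 and 7.35 in AR113Q. The WT values of Mthfd1l fell into a low and a high pair, and neither difference (0.79 and 1.39) passed the test (adjusted p = 0.218 and 0.136).

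Pck2, Fgf21 and Gdf15 did not pass the filter. Pck2, the mitochondrial enzyme of gluconeogenesis, was well above background on 1 of 4 WT and 0 of 3 AR113Q arrays. Fgf21 and Gdf15, hormones that muscle can release under mitochondrial stress, were well above background on 0 of 7 arrays, and on 1 of 4 WT and 1 of 3 AR113Q arrays, respectively. No fold change is given for them, and a change below the detection of these probes cannot be seen.

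In the XBP1-ATF6 branch, both transcription factors were higher in AR113Q. Xbp1 measured 12.69, 12.62, 12.56 and 12.83 in WT and 13.55, 13.25 and 13.57 in AR113Q. The groups did not overlap, and the change of 0.78 ± 0.16 passed the adjusted p (0.00496) but not the fold threshold. The gene has 1 probe (chr11:5425816-5425875, mm9), which gives no separate value for the spliced mRNA. Atf6 measured 8.11, 8.03, 7.88 and 8.13 in WT and 9.63, 8.90 and 9.28 in AR113Q, a change of 1.23 ± 0.19 (adjusted p = 0.00181). It was under the fold threshold with the mean spot intensity, with normexp and with the authors' own values (0.86 at the lowest of all alternatives).

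The chaperones and disulfide isomerases listed here are part of the classical effectors of both factors. They held 1 DEG among 8 tested (12.5%), beside 24.3% of all genes. Hspa5 and Dnajb9 belong to a comparison list given below. Of the 8, 2 (Canx and Manf) were higher with a change under the fold threshold, 1 (Pdia4) was a lower DEG, 5 did not pass, and the median log2 fold change was -0.02. Canx, the membrane lectin chaperone calnexin, measured 11.65, 11.49, 11.62 and 11.65 in WT and 12.78, 12.12 and 11.91 in AR113Q. All 3 AR113Q values were higher, that of replicate 1 most, and the change was 0.67 ± 0.22 (adjusted p = 0.0378). It was 0.41 without AR113Q replicate 1, and its adjusted p was above the threshold in 12 of 20 alternatives (0.0859 at the highest). Manf, a secreted ER chaperone with trophic activity, lay at 9.02 to 9.50 in WT and 9.61 to 10.08 in AR113Q and was higher by 0.52 ± 0.18, at the edge of the threshold (adjusted p = 0.0482), which it missed in 10 of 20 alternatives (0.167 at the highest).

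Calr, the soluble relative of calnexin, measured 11.90, 11.48, 11.27 and 12.08 in WT and 11.93, 11.27 and 11.41 in AR113Q. The ranges overlapped, and the difference was -0.15 (interval -0.73 to 0.43). Creld2, Pdia6, Pdia3 and Sdf2l1 also overlapped between genotypes, with differences of -0.27, -0.27, 0.28 and 0.12. The 95% intervals of these 5 genes ended below a log2 fold change of 1, the highest upper bound being 0.99 for Sdf2l1. Pdia6, a disulfide isomerase, was measured by a second and dimmer probe, which was lower by 0.75 (adjusted p over probes = 0.0207), so that 1 of its probes passed the adjusted p and neither was a DEG. Hyou1, a large ER chaperone, did not pass the filter, with 0 of 4 WT and 1 of 3 AR113Q arrays well above background.

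Pdia4, an isomerase with several thioredoxin domains, measured 7.93, 7.17, 7.08 and 7.88 in WT and 6.89, 6.59 and 5.48 in AR113Q. The groups were 0.19 apart at their nearest, and AR113Q replicate 3 was far below the others. The log2 fold change was -1.19 ± 0.37 (adjusted p = 0.0326), and the call was lost in 9 of 20 alternatives, among them those without WT replicate 1 (-1.06) or 4 (-1.07) and without AR113Q replicate 2 (-1.33) or 3 (-0.77). Several chaperones varied together within WT: Calr, Creld2, Pdia3, Pdia4 and Sdf2l1 were higher on WT replicates 1 and 4 than on WT replicates 2 and 3. The median difference of the chaperones from the WT mean was 0.22, -0.17, -0.29 and 0.21 on the 4 WT arrays and 0.35, -0.23 and -0.36 on the 3 AR113Q arrays, so that the genotypes overlapped. The median over the fibroblast markers, whose cells secrete much protein, was 0.21, 0.01, -0.26 and 0.12 on the same WT arrays. It was -3.11, -2.01 and -1.48 on the AR113Q arrays, where Dcn went the other way. The part of these cells in the chaperone levels was not tested.

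Among the 4 genes of ER-associated degradation, 1 was a higher DEG (25.0%, beside 24.3% of all genes) and 1 was higher with a smaller change. Herpud1, a membrane protein that assembles the retrotranslocation complex, measured 11.63, 11.997, 11.94 and 11.61 in WT and 13.23, 12.84 and 12.64 in AR113Q. The groups did not overlap and differed by 1.11 ± 0.20 (adjusted p = 0.00287), and without AR113Q replicate 1 by 0.95, under the fold threshold. Syvn1, the ubiquitin ligase HRD1 of that complex, measured 11.37, 11.55, 11.17 and 11.48 in WT and 12.50, 12.29 and 11.79 in AR113Q, higher by 0.80 ± 0.20 (adjusted p = 0.0145). Its adaptor Sel1l differed by 0.01 (interval -0.34 to 0.37), and the mannosidase-like Edem1 by 0.45 (-0.31 to 1.205), both with overlap. In Edem1 the AR113Q replicate 1 stood at 8.97 and the other two at 8.03 and 7.55, within or near the WT range of 7.39 to 8.02.

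**Figure D3:**
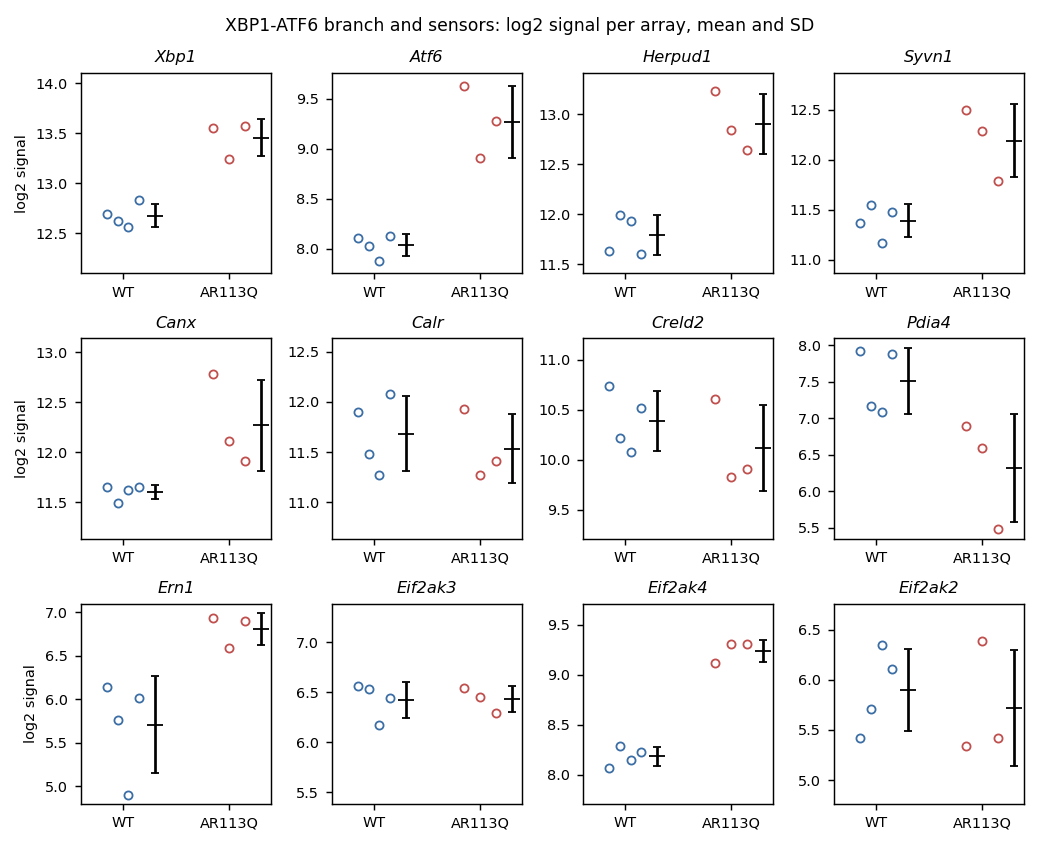
Log2 signal (y axis, quantile normalized; a separate scale per panel) of 12 genes of the XBP1-ATF6 branch and the sensors on each WT (blue, n = 4) and AR113Q (red, n = 3) array, with the mean and SD in black. Xbp1, Atf6, Herpud1, Syvn1, Canx, Ern1 and Eif2ak4 were higher on all 3 AR113Q arrays, Pdia4 was lower on all 3, and Calr, Creld2, Eif2ak3 and Eif2ak2 overlapped.

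The promoters of this branch were read for the ER stress response element, to which ATF6 and XBP1 bind together with NF-Y. The element (CCAAT, any 9 bases, CCACG, on either strand) was found in 0.119% of all promoter windows and in 5 of the 12 genes of the branch that had a window: Canx, Syvn1, Calr, Creld2 and Pdia6. They are shown with the element in capitals, on the gene's strand, and it runs in reverse in Calr and Creld2.
Canx, chr11:50325785-50325833, minus strand: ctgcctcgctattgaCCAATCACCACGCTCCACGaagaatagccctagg
Syvn1, chr19:6046517-6046565, plus strand: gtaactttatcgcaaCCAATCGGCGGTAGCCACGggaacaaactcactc
Calr, chr8:84847060-84847108, minus strand: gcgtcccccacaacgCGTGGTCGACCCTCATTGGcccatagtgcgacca
Creld2, chr15:88819505-88819553, plus strand: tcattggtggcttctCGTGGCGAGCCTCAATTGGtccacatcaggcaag
Pdia6, chr12:17266476-17266524, plus strand: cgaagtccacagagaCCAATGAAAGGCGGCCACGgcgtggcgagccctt
Canx and Syvn1 were higher in AR113Q, and Calr, Creld2 and Pdia6, with the same element, overlapped between genotypes. The second form of the element (ATTGG, 1 base, CCACG) occurred in 0.0365% of all windows and in Herpud1 alone among the 38 genes. It is the second run of capitals in the Herpud1 stretch above, downstream of the C/EBP-ATF element and not overlapping it. The unfolded protein response element TGACGTGG occurred in 0.676% of all windows and in none of the 38.

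The 5 sensors are the kinases that feed both branches, and 2 of them were higher DEGs, beside 11.2% of all genes. Eif2ak4 encodes GCN2, the eIF2α kinase that senses uncharged tRNA. It measured 8.07, 8.29, 8.15 and 8.22 in WT and 9.11, 9.30 and 9.30 in AR113Q. The values were tight within each genotype and did not overlap, and the change was 1.06 ± 0.14 (adjusted p = 0.000931). Its fold was near the threshold and fell under it in 4 of 20 alternatives. Ern1, which encodes IRE1α, measured 6.14, 5.76, 4.90 and 6.01 in WT and 6.93, 6.59 and 6.90 in AR113Q, a change of 1.10 ± 0.30 (adjusted p = 0.0182). WT replicate 3 was the lowest, and without it the change was 0.84. The call was lost in 8 of 20 alternatives, among them those without WT replicate 3 and without AR113Q replicate 1 (1.04).

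The other eIF2α kinases overlapped between genotypes. Eif2ak3, which encodes PERK, the kinase of the ER, measured 6.56, 6.53, 6.17 and 6.44 in WT and 6.55, 6.46 and 6.29 in AR113Q, a difference of 0.01 with an interval from -0.36 to 0.38. Eif2ak2, the kinase of double-stranded RNA, measured 5.42, 5.71, 6.35 and 6.11 in WT and 5.34, 6.39 and 5.42 in AR113Q, a difference of -0.18 (-0.91 to 0.55). Eif2ak1, the heme-regulated kinase, measured 8.06, 7.93, 7.80 and 8.06 in WT and 8.56, 8.34 and 7.82 in AR113Q, a difference of 0.28 (-0.18 to 0.74). These are mRNA levels of kinases and do not report their activity.

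**Figure D4:**
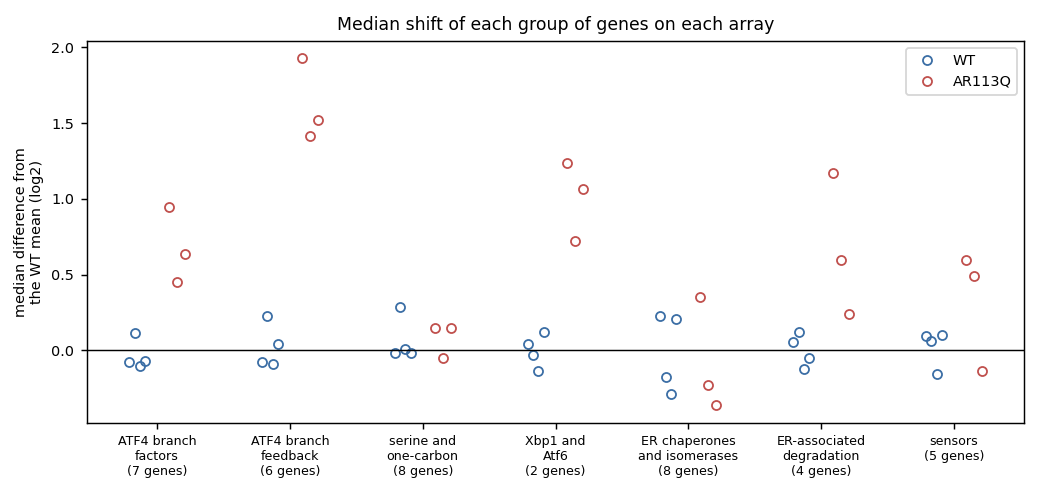
Median over the tested genes of each group (x axis, with the number of genes) of the log2 difference from the WT mean (y axis), 1 point per array, WT in blue and AR113Q in red. The feedback genes stood at 1.42 to 1.93 on the AR113Q arrays, the 2 ER factors at 0.72 to 1.23 and the ATF4 branch factors at 0.45 to 0.95, while the serine and one-carbon enzymes (-0.05 to 0.15) and the chaperones (-0.36 to 0.35) lay within the range of the WT arrays or close to it.

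Other genes of the same pathways, listed for comparison and also with earlier results of these data known, are given by their counts. Of 20 further ATF4 targets and genes of the integrated stress response tested (23 listed), 6 were higher and 2 were lower DEGs, beside 11.2% and 13.1% of all genes, and the median change was 0.48. The higher ones were the transsulfuration enzymes Cbs (2.41) and Cth (2.16), the amino acid transporters Slc7a1 (2.40) and Slc7a5 (1.55), the secreted glycoprotein Stc2 (1.77) and the mTORC1 inhibitor Ddit4 (1.60). The genotypes overlapped in Ddit4, which spread from 12.75 to 15.15 in WT. The lower ones were the glycine transporter Slc6a9 (-1.28) and the lipoprotein receptor Vldlr (-1.17). Asns, which makes asparagine, was higher by 0.99 (adjusted p = 0.0172), just under the fold threshold. Of 8 aminoacyl-tRNA synthetases tested, 0 were DEGs and 2, Aars and Tars, were higher with a smaller change.

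Of 13 genes of the eIF2 and eIF2B complexes and their partners, 0 were DEGs (limma, 3 past the adjusted p alone), with a median of 0.16. Of 34 further XBP1 and ATF6 targets and ER quality control genes tested (35 listed), 2 were higher and 3 were lower DEGs, and the median was -0.02. That is 14.7% of the 34, below the 24.3% of all genes. Mbtps2, the site-2 protease that releases ATF6 from the membrane, was higher by 2.05 and the XBP1 target Dnajb9 by 1.52. Pdia5 was lower by 1.91, the translocon subunit Sec61b by 1.73 and the collagen-related factor Creb3l1 by 1.45 (log2 fold changes -1.91, -1.73 and -1.45), with overlap between genotypes in Creb3l1. Hspa5, the ER chaperone BiP, was higher by 0.96 (adjusted p = 0.00823), under the fold threshold.

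**Figure D5:**
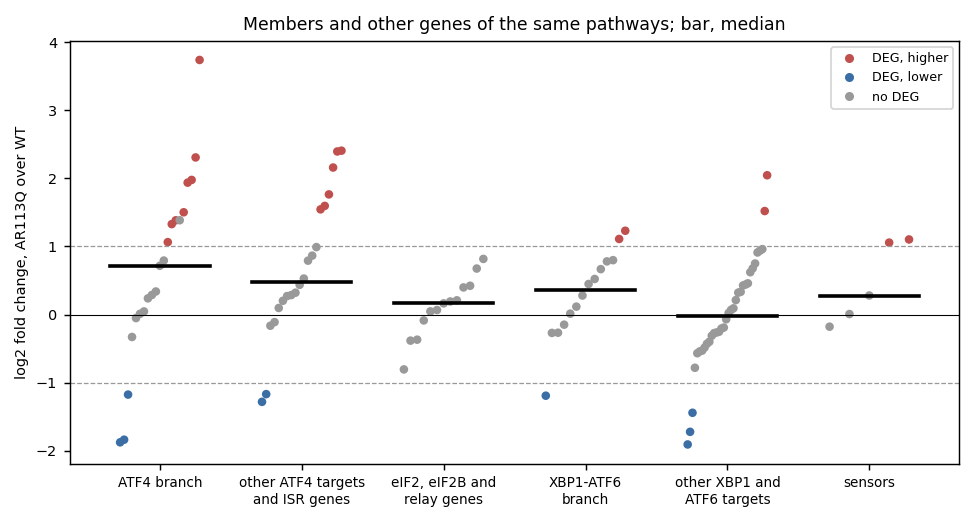
Log2 fold change of AR113Q over WT (y axis) of each tested gene of the 3 branches and of 3 further lists (x axis), with DEGs in red (higher) and blue (lower) and the median as a bar; dashed lines mark a log2 fold change of 1. The medians were 0.72 for the ATF4 branch, 0.48 for other ATF4 targets and stress response genes, 0.16 for eIF2 genes, 0.36 for the XBP1-ATF6 branch, -0.02 for other ER genes and 0.28 for the sensors.

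All 16 DEGs of the 3 branches kept their direction in every alternative run, and none of their groups overlapped, beside 49.3% of all genes without overlap. They were called on these same 7 arrays, so that neither result is a separate test of them. Of the 16, 7 stayed DEGs in every alternative other than slide as a fixed effect: Atf4, Atf3, Nupr1, Trib3, Ppp1r15a, Eif4ebp1 and Phgdh. The arrays came from 5 slides, and only slide 2 carried WT and AR113Q together (replicate 2 of WT, replicate 1 of AR113Q). With slide as a fixed effect the comparison rested on that pair, and 0 of the 16577 genes were DEGs by limma, with 6200 at an unadjusted p of at most 0.05. Between these arrays all 16 DEGs had the same sign as in the whole comparison, for example 1.70 for Atf4, 4.47 for Ppp1r15a, 1.96 for Trib3, -2.69 for Phgdh and -2.52 for Psph. This pair belongs to the 7 arrays of the main comparison and is no independent check. Its AR113Q array was also the most shifted. The median difference of the 40 genes from the WT mean was 0.81 on AR113Q replicate 1, and 0.35 and 0.40 on replicates 2 and 3. In the XBP1-ATF6 branch it was 0.81, 0.13 and 0.20. With the authors' own normalized values, 15 of the 16 were measured and 9 were DEGs in the same direction.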

How the data were processed

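The arrays were scanned and read by the authors with Agilent Feature Extraction 10.7.3.1, as the submitters' processing notes say. The deposited scanner output holds an intensity for every spot, from which background was already subtracted but which was not made comparable between arrays. A table of log2 values, deposited by the authors and quantile normalized per their methods, served as an alternative. For the results given, the background-subtracted intensities were log2 transformed, spots marked as outliers were treated as missing and not imputed, controls were dropped, and quantile normalization was applied across the 7 arrays before replicate spots were averaged. Probes had to stand well above background on 3 or more of the 7 arrays (20991 of 39429 did). The brightest kept probe on average stood for its gene. Subtracting background widens the log2 differences of dim probes.

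The genotypes (4 WT, 3 AR113Q) were compared by limma 3.58.1 (R 4.3.3) using lmFit and eBayes without covariates, and p-values were adjusted over 16577 genes by Benjamini-Hochberg. The same fit was run on simulated data with independent noise, few changed genes and no slide effect. Those settings differ from the arrays here, so that the simulation is no check of the calls. The number of arrays limits the precision. Symbols follow the RefSeq table of GRCm38.p6, which named 28330 probes, and otherwise the array's own names. Positions of probes come from the array annotation (mm9), and promoter windows are RefSeq sequence of GRCm38.p6. Marker means average the log2 signals of a list. The members and all lists were chosen with earlier results of these data known. All members were to be named, with values for each array of DEGs and regulators, as were the 2 most increased and 2 most decreased DEGs of each comparison list. Cth, Slc7a5, Stc2, Ddit4, Asns, Aars, Tars, Creb3l1, Hspa5, Mylpf, Sdc1, Mzb1, Cd79b, Pdgfra and Dcn fall outside this rule and were chosen after their values were seen.

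Alternative settings were 75th percentile scaling, normexp (offset 50), the mean spot intensity, the authors' values, no dim-probe filter or one over all 7 arrays, the mean of a gene's probes, outlier spots retained, an intensity trend, array weights, slide as random block or fixed effect, a replicate block, omission of each array, and no fold threshold.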

Additional observations from a re-analysis of the deposited data

Results flagged for a closer look

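Among the 40 genes tested, the 4 WT values of 1, Chac1, held a sample far from the others. WT replicate 4 stood at a log2 signal of 12.26, while the other WT arrays lay between 13.52 and 13.65. The gap made up 0.909 of the range of the group. About 1 in 20 groups would be marked in this way by chance. The AR113Q arrays lay at 12.96 to 13.65, and without this sample the log2 fold change was -0.32 in place of 0.01, neither past the threshold. The cause was not tested.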

How the results depend on the processing

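Of 793 recomputed log2 fold changes of the 40 genes, 700 kept their direction and side of the threshold, 53 fell below it, 1 rose above it (Syvn1 without AR113Q replicate 3) and 39 reversed, all of the last among 11 genes that were no DEG. The cause was not tested, except that slide as a fixed effect leaves 1 pair of arrays to inform the comparison. That setting gave 0 DEGs in each branch, in each further list and among all genes. Higher and lower DEGs of the XBP1-ATF6 branch numbered 1 and 0 with normexp, with the mean spot intensity and with the authors' values, and lower ones 0 with no filter. DEGs among the sensors numbered 0 with normexp, the mean spot intensity and the authors' values, and 1 with scaling to the 75th percentile, which moved the median of all genes to -0.08, or with array weights. Other ATF4 targets and stress response genes (the other ATF4 list) fell to 2 higher and 1 lower with the authors' values. Other ER genes came to 4 higher with percentile scaling, to 1 higher and 1 lower with the authors' values, and to 1 lower with normexp. Among all genes there were 1763 DEGs with normexp, 1904 with the mean spot intensity and 1365 with the authors' values, against 4030. With no fold threshold the counts were 6 higher in the XBP1-ATF6 branch, 10 higher among the other ATF4 list, 9 higher and 7 lower among other ER genes, 3 among eIF2 genes, and 7229 in all.

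With each array left out in turn, DEGs numbered 7 to 8 higher and 3 to 3 lower in the ATF4 branch, 1 to 3 and 0 to 1 in the XBP1-ATF6 branch, 1 to 2 among the sensors, 5 to 7 and 1 to 2 among the other ATF4 list, 0 to 0 among eIF2 genes, 2 to 4 and 2 to 3 among other ER genes, and 3467 to 4331 in all. The single higher count of the XBP1-ATF6 branch came without AR113Q replicate 1, and its lower DEG, Pdia4, was lost on leaving out replicate 1 or 4 of WT, or replicate 2 or 3 of AR113Q. The sensors kept 1 DEG without WT replicate 3 or AR113Q replicate 1. The other ATF4 list kept 1 lower DEG without AR113Q replicate 2, and other ER genes had 4 higher without AR113Q replicate 2 or 3.

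The replicate numbers did not pair the samples, with correlations of 0.04, -0.02 and 0.16 for the 3 numbers. With the replicate block the ATF4 branch had 7 higher and 3 lower DEGs, the XBP1-ATF6 branch 2 and 1, the sensors 2, the other ATF4 list 5 and 2, eIF2 genes 0, other ER genes 2 and 2, and all genes 3989. The replicate block turned Ddit3 to -0.089, Chac1 to -0.32 and Sel1l to -0.053. These are also the values without WT replicate 4, whose number has no AR113Q partner, so that the block gave no separate estimate of them.

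Other reversed values were, with array weights, Ddit3 -0.16, Aldh1l2 0.020, Sel1l -0.0442 and Eif2ak2 0.073; with normexp, Chac1 -0.13, Aldh1l2 0.032 and Sel1l -0.057; with the mean spot intensity, Chac1 -0.13, Aldh1l2 0.027, Sel1l -0.057 and Eif2ak2 0.018; with the authors' values, Chac1 -0.12, Aldh1l2 0.018 and Sel1l -0.046; with slide as a fixed effect, Chac1 -0.56, Mthfd1l -0.0014, Aldh1l2 0.17, Calr 0.45, Pdia6 0.41 and Creld2 0.39; and with percentile scaling, Eif2ak3 -0.16. With 1 array left out, the values ranged from -0.25 to 0.36 for Ddit3, -0.32 to 0.17 for Chac1, -0.15 to 0.13 for Aldh1l2, -0.25 to 0.40 for Sdf2l1, -0.053 to 0.091 for Sel1l, -0.51 to 0.0080 for Eif2ak2 and -0.079 to 0.078 for Eif2ak3.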
